A study of Danio rerio with 12 samples.

Results

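The genes described here are the collagens and other genes of the extracellular matrix in whole zebrafish embryos at 32 hours post fertilization. They were chosen by gene symbol, as names that begin with those of collagen chains, laminins, fibrillins, fibronectin 1, matrix metalloproteinases and their TIMP inhibitors, ADAMTS proteases, tenascins, matrilins, hyaluronan synthases, aggrecan, versican, thrombospondins and lysyl oxidases. The rule reached 78 of 15267 named genes in the table analysed, and each was represented by the start-site window with the highest mean signal. One of them, col4a3bpa, is annotated as a binding protein of a collagen chain and encodes a ceramide transfer protein, so 77 genes of the matrix remain. Open chromatin was read out by ATAC-seq, which uses the Tn5 transposase to cut and tag accessible DNA. Embryos with a homozygous mutation of supt16h, named as mutants below, were compared with their wildtype siblings, with 3 biological replicates in 2 technical repeats each per group. The protein belongs to the FACT complex, which takes nucleosomes apart and rebuilds them where polymerases pass. All fish were kept at 28°C, whole embryos were deyolked, and 50000 cells went into each library.

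The extracellular matrix is the scaffold of proteins and sugars that cells secrete around themselves. Fibrillar collagens give it tensile strength, collagen IV and laminins form the basement membranes under epithelia and around muscle and vessels, and proteoglycans and hyaluronan hold water. In the fish embryo, type II collagen is a main product of the notochord sheath and of the cartilage that forms later. Metalloproteinases cut the matrix, TIMPs inhibit them, and lysyl oxidases cross-link collagen and elastin.

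The values are log2 signals in windows of 4000 bp centred on annotated start sites, with the normalization done by the authors, and depth is unknown because no counts are given. Differences are given as the mutant mean less the wildtype mean, limma supplies their standard error (SE), and a window is called where its adjusted p is at most 0.05 over all 15431 tested windows. Library medians lay between 7.32 and 7.40. The window of supt16h itself stood at 8.61, 8.51 and 8.75 in the mutants and at 8.70, 8.22 and 8.72 in the siblings, so the groups overlapped (adjusted p = 0.776), and a promoter's accessibility checks no genotype. Directions rest on how the library columns are named and would turn if those names were exchanged, and the log2 fold change in the authors' deposited table has the opposite sign at all 2977 windows it calls. Mutant values were more spread along the range of signal. The slope of a replicate on the mean of all replicates was 0.994, 1.04 and 1.04 in the mutants and 0.951, 0.988 and 0.988 in the siblings, and a fit with this slope as a covariate is given below. Biological replicates with the same number deviated together in both groups, so a fit with that number as a block is given where it changes a call. In whole embryos, fewer cells with an open promoter and a less open promoter in each cell cannot be told apart.

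Start sites of matrix genes were moderately open in wildtype embryos. Their median log2 signal was 6.86, against 7.40 over all tested windows. Of the 78 genes, 25 lay above that median, 4 above the upper quartile and 21 below the lower quartile of all windows, and all 78 passed the minimum mean log2 value of 4. The most open were lamc1, the laminin gamma chain found in most laminins, at 9.31 ± 0.05 (SD, n = 3), col4a5, a basement membrane collagen, at 9.30 ± 0.05 (SD, n = 3), and col2a1a, a type II collagen gene, at 8.62 ± 0.04 (SD, n = 3). The least open were has1, a hyaluronan synthase gene, at 4.73 ± 0.08 (SD, n = 3), lamb4, a laminin beta chain gene, at 4.87 ± 0.14 (SD, n = 3), and col17a1a, a collagen of epidermal attachment, at 5.16 ± 0.12 (SD, n = 3). The SDs of lamc1 and col4a5 were larger than the gap between them.

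**Figure D1:**
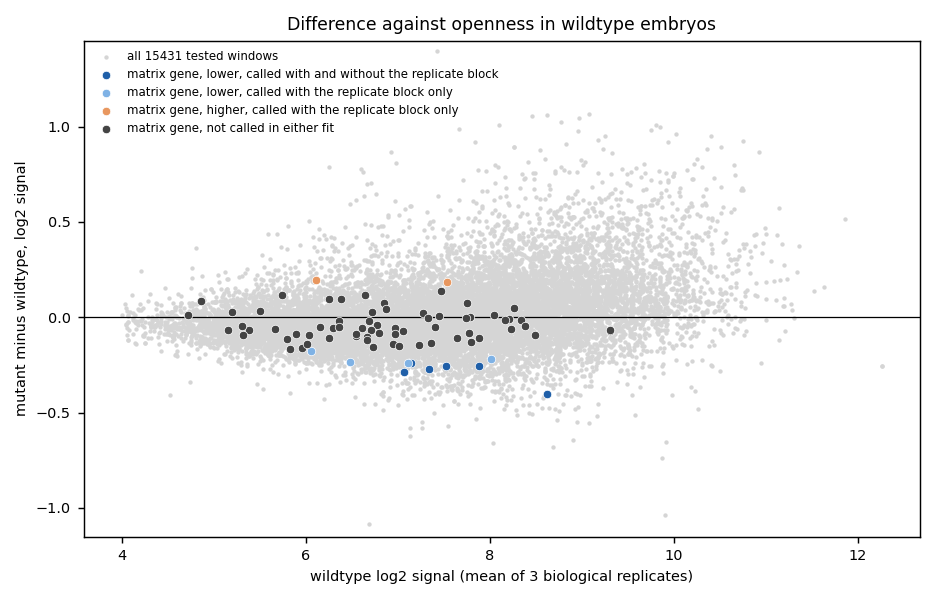
Each point is a start-site window, with the wildtype log2 signal (mean of 3 biological replicates) on the x axis and mutant minus wildtype log2 signal on the y axis. Grey points are the 15431 tested windows and coloured or dark points the 78 listed genes, of which the 6 called with and without the replicate block lie below 0 and col2a1a, at -0.40, lowest.

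In the mutants, 6 of the 78 start sites were less open and none was called more open. The 6 were col2a1a, col15a1b, thbs3b, matn3b, mmp14b and col11a2, and their differences ran from -0.40 to -0.24. Over all tested windows limma called 8.02% higher and 3.58% lower (11.6% in either direction), and 7.69% of the listed genes were lower. Thus in this fit the share of lower calls was above that of all windows while the share of calls in either direction was below it. The excess of lower calls rests on few genes and was absent after cyclic loess normalization without the block, as given below. At an unadjusted p under 0.05, 2 of the listed genes were higher and 12 lower, against 14.2% and 10.6% of all windows. The authors' deposited table calls 10 of them, 9 in the direction that is lower here and 1 in the other, and 19% of all windows. Openness bears on these shares, since all tested windows with a mean log2 signal of 8 or more were called higher in 18.4% and lower in 2.76% of cases, and those between 6 and 8 in 3.14% and 5.52%. Among the listed genes, 5 of the 50 between 6 and 8 and 1 of the 11 at 8 or more were called lower, and none of the 17 below 6 passed. Calls were rare there over all tested windows too, with 0.39% higher and 0.62% lower between 4 and 6.

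With the replicate number as a block, 10 of the 78 were lower and 2 higher, where 9.47% and 14% of all windows were called in these directions and 23.5% in either. The 6 genes above were among the 10, joined by mmp14a, timp2a, tnr and lamb1b, and the 2 higher genes were col2a1b and matn3a. These 6 further genes are named because the block called them, a choice made after their values were seen. Few alternative fits called them: 1 of 17 at lamb1b, 3 of 18 at timp2a and col2a1b, and 4 of 18 at mmp14a, matn3a and tnr. After cyclic loess normalization without the block, 1 gene was higher and 3 lower, against 6.56% and 4.57% of all windows (11.1% in either direction). The share of lower genes was then below that of all windows. The lower genes in that fit were col2a1a, col15a1b and matn3b, and the higher one was matn3a. The calls at col11a2, thbs3b and mmp14b were lost there with all libraries kept (limma adjusted p = 0.0887, 0.0646 and 0.0781). With loess and the block together, 2 were higher and 11 lower, against 11.2% and 9.6% (20.8% in either), and the share of lower genes was above that of all windows. lamb1b was not among these 11. With the slope of each replicate as a covariate, limma called none of the 78 and 2.86% of all windows. In that fit 11 of the 78 and 17.6% of all windows had an unadjusted p under 0.05. Every mutant slope lay above every sibling slope, so this fit cannot fully separate slope from genotype, and its lost calls decide little. The difference grew to -0.40 at thbs3b (adjusted p = 0.0832) and shrank to -0.23 at col15a1b (0.316).

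Small differences below 0 were common. The difference was negative at 58 of the 78 genes, or 74.4%, and at 54.7% of all tested windows, and the medians were -0.07 and -0.02. At like openness the gap was smaller below a mean log2 signal of 8 and wider at 8 or more. Between 4 and 6 the medians were -0.07 for the listed genes and -0.05 for all windows, between 6 and 8 they were -0.07 and -0.04, and at 8 or more -0.04 and 0.07. Cyclic loess, quantile normalization and equal library medians moved the median of the listed genes to -0.0321, -0.0351 and -0.0352. Equal library medians move all windows by the same amount, so the gap between the listed genes and all windows stayed as before. The median of all windows after cyclic loess or quantile normalization is not given here, so the gap under these cannot be stated. The difference lay within 0.1 of 0 at 47 genes and beyond 0.2 at 9. The 3 mutant replicates lay below the 3 siblings at 18 genes and above them at 3, where 14% and 15.5% of all windows did so. In all 3 pairs of equal replicate number the mutant was lower at 30 genes (38.5%) and higher at 6 (7.69%), against 28.1% and 25.6% of all windows. With all 12 libraries taken singly, mutants lay below siblings without overlap at 5 genes, col2a1a, col15a1b, col11a2, mmp14b and timp2a, and above at none, against 2.97% and 6.35% of all windows.

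**Figure D2:**
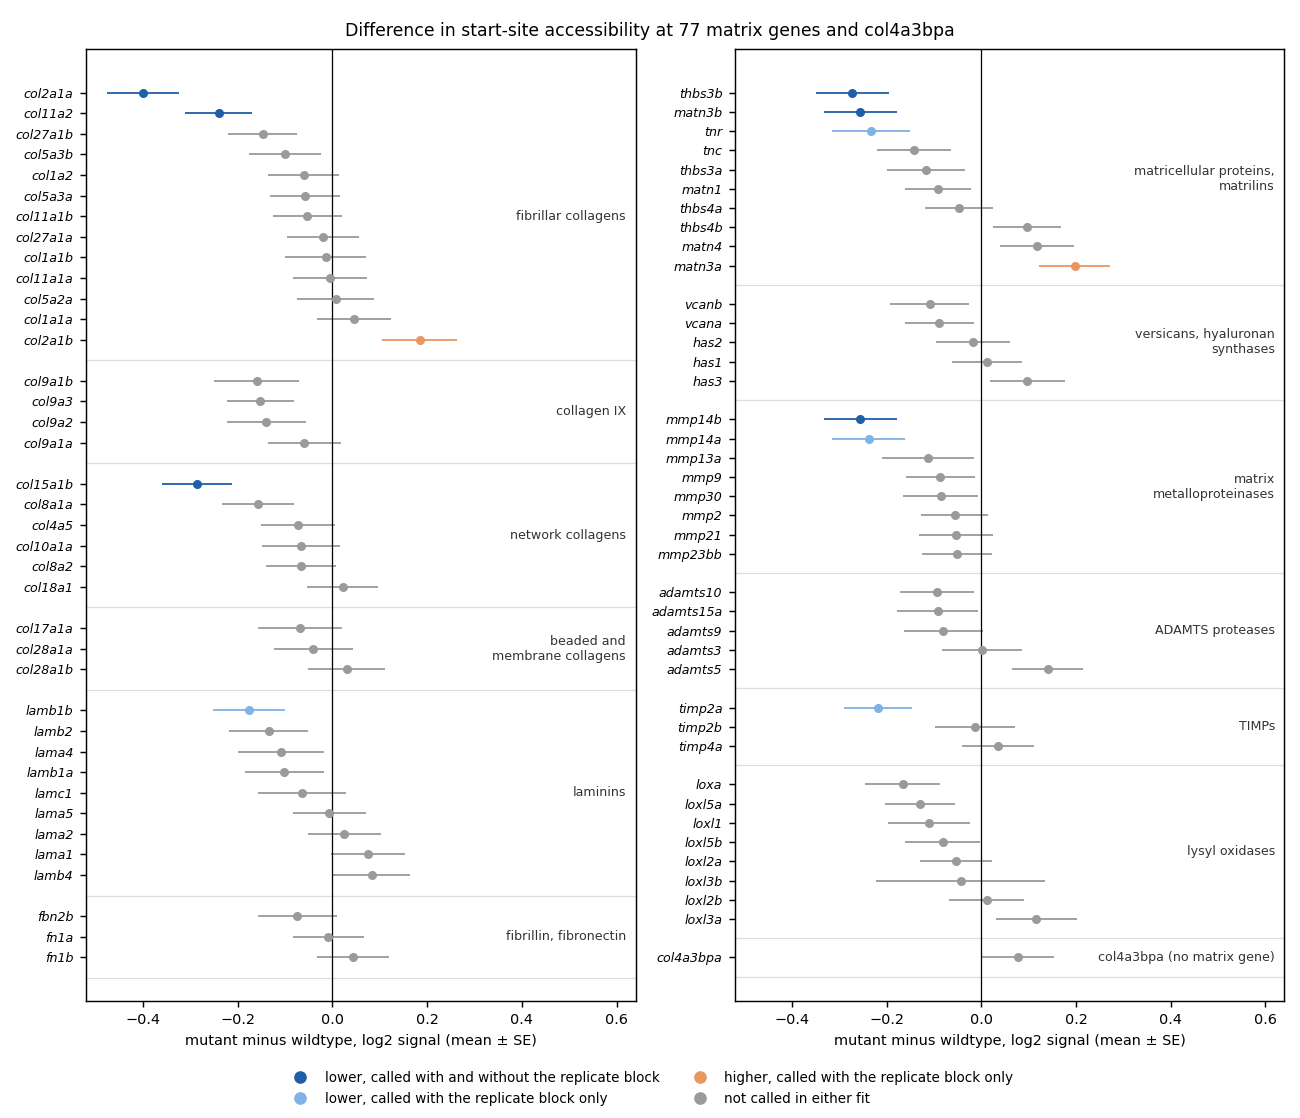
Points show mutant minus wildtype log2 signal and bars its SE for every listed gene, ordered within groups of matrix function. Most points lie between -0.2 and 0.1, and the largest differences, at col2a1a and col15a1b, are -0.40 and -0.29.

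Among the 13 fibrillar collagen genes, 2 fell, none rose and 11 did not pass (1 higher and 2 lower with the replicate block), and their median difference was -0.05. Over all tested windows 8.02% were called higher and 3.58% lower, and 14% and 9.47% with the block. col2a1a encodes the chain of type II collagen. Its window on chromosome 8, from 21161444 to 21165444 (GRCz10), stood at 8.28, 8.24 and 8.14 in the mutants and at 8.61, 8.59 and 8.66 in the siblings. All mutant replicates were below all siblings, and the gap between the groups exceeded the spread within either. The signal fell by 0.40 ± 0.08 (SE, n = 3) on the log2 scale, 1.32-fold, with a limma adjusted p of 0.002 and a 95% interval from -0.56 to -0.24. Folds here are on the authors' shrunken scale, and the authors' deposited table gives a log2 fold change of 0.58 in size for col2a1a and 0.49 for col15a1b. In the 3 pairs of equal number the differences were -0.33, -0.35 and -0.52. The call held in 17 of 18 alternative fits, and with the replicate slope as a covariate the difference was -0.34 with an adjusted p of 0.112. Beside it, notochord markers had a summed linear signal of 1163 to 1206 over mutant replicates and 1213 to 1281 over siblings, and those of cartilage 3249 to 3642 and 2986 to 3168. Yet 7 of the 10 cartilage markers differed in the negative direction and 3 in the positive, with a median of -0.07. Sums of heart and of blood and vessel markers, given below, were also lower in mutants without overlap, and those of neural markers higher. The part of notochord and cartilage in the difference at col2a1a was not tested. The second type II gene, col2a1b, went the other way. It stood at 7.67, 7.79 and 7.71 in the mutants and at 7.52, 7.66 and 7.44 in the siblings, with the lowest mutant just above the highest sibling. The difference of 0.18 ± 0.08 was not called (adjusted p = 0.154), and was with the replicate block (0.0479). With the first technical repeat alone col2a1b differed by 0.11, and with the second alone by 0.26.

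col11a2, a chain of type XI collagen, which runs inside type II fibrils, also fell. Its window on chromosome 19 (7304303 to 7308303) stood at 6.86, 6.97 and 6.90 in the mutants and at 7.16, 7.13 and 7.15 in the siblings, so the sibling replicates were nearly equal and all above the mutants. The difference was -0.24 ± 0.07 (SE, n = 3; adjusted p = 0.0355, and 0.0112 with the replicate block). The call was lost in 11 of 18 alternative fits, including those without mutant replicates 1 or 3 (adjusted p = 0.0791 and 0.1) and without wildtype replicates 1, 2 or 3 (0.111, 0.0888 and 0.104). The other type XI genes, col11a1a and col11a1b, differed by -0.01 and -0.05. The type I genes col1a1a, col1a1b and col1a2, which build skin and later bone, lay at 8.26, 8.34 and 8.23 in wildtype embryos and differed by 0.05, -0.01 and -0.06, each less than its SE. The minor type V genes col5a2a, col5a3a and col5a3b differed by 0.01, -0.06 and -0.10, and col27a1a and col27a1b by -0.02 and -0.15, without a call.

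Collagen IX decorates type II fibrils. Its 4 genes all differed in the negative direction, by -0.06 at col9a1a, -0.14 at col9a2, -0.15 at col9a3 and -0.16 at col9a1b, and did not pass. Over all tested windows 54.75% were negative. At the openness of these genes the median of all windows was -0.05 (mean log2 signal from 4 to 6) and -0.04 (from 6 to 8). At col9a3 the mutant replicates lay below all siblings (6.86 ± 0.04 against 7.01 ± 0.03, SD, n = 3 each; adjusted p = 0.187). The window of col9a2 overlaps that of smap2, whose start site lies 2484 bp away.

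Of 6 network-forming and basement membrane collagens, 1 fell and 5 did not pass, where 3.58% of all tested windows were called lower and 8.02% higher. col15a1b encodes a collagen of basement membrane zones that also carries sugar chains. Its window on chromosome 2 (24355432 to 24359432) stood at 6.86, 6.77 and 6.72 in the mutants and at 7.05, 7.01 and 7.15 in the siblings. The groups did not overlap in any of the 12 libraries. The decrease was 1.22-fold, a difference of -0.29 ± 0.07 (SE, adjusted p = 0.0176, and 0.0051 with the replicate block). The call was lost in 5 of 18 alternative fits, among them those without mutant replicate 3 (0.0829) or wildtype replicates 1 or 3 (0.0562 and 0.0948). col18a1, its close relative and the source of endostatin, differed by 0.02, and col4a5 by -0.07. col8a1a, a short-chain collagen of the zebrafish notochord, differed by -0.16 (adjusted p = 0.214) and col8a2 and col10a1a by -0.07 each. The 3 remaining collagens, col17a1a, col28a1a and col28a1b, differed by -0.07, -0.04 and 0.03.

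The 9 laminin genes ranged from -0.18 to 0.08, with a median of -0.06, and did not pass. Limma called 11.6% of all tested windows in either direction. lamb1b, a beta chain gene, stood at 5.96, 5.93 and 5.77 in the mutants and at 6.03, 6.12 and 6.04 in the siblings. Its difference of -0.18 ± 0.08 was not called (adjusted p = 0.158) and was with the replicate block (0.0424). That call was lost with cyclic loess and the block together (limma adjusted p = 0.156). lama1, lama2, lama4 and lama5, which encode the alpha chains, lay at 0.08, 0.03, -0.11 and -0.01, and lamc1, present in most laminin trimers, at -0.06 ± 0.09. The beta chain genes lamb1a, lamb2 and lamb4 lay at -0.10, -0.13 and 0.08. Fibronectin binds integrins during tissue movements, and its genes fn1a and fn1b differed by -0.01 and 0.04, while fbn2b, a fibrillin of the elastic microfibrils, differed by -0.07.

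Among 10 thrombospondin, tenascin and matrilin genes, 2 fell, none rose and 8 did not pass (1 higher and 3 lower with the block). The shares of all tested windows were 3.58% lower and 8.02% higher, and 9.47% and 14% with the block. thbs3b encodes a thrombospondin of the pentameric type, which binds collagens. Its window on chromosome 19 (24857171 to 24861171) stood at 7.04, 7.04 and 7.12 in the mutants and at 7.22, 7.37 and 7.43 in the siblings. Every mutant replicate was below every sibling, and the siblings were the more spread group. The difference was -0.27 ± 0.08 (SE, adjusted p = 0.0278, and 0.0057 with the block). Its call was lost in 8 of 18 alternative fits, among them fits leaving out mutant replicate 1 or 2 (0.0579 and 0.0618) and sibling replicate 2 or 3 (0.0953 and 0.136). Its duplicate thbs3a was not called at -0.12 ± 0.08 (adjusted p = 0.417), its groups overlapped, and its pairs of equal number differed by 0.08, -0.33 and -0.10. Without wildtype replicate 2 thbs3a differed by -0.05, and without wildtype replicate 1 by -0.19.

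Matrilins link collagen fibrils and proteoglycans in cartilage. matn3b (chromosome 13, 32503409 to 32507409) stood at 7.54, 7.73 and 7.61 in the mutants and at 7.93, 7.84 and 7.89 in the siblings, without overlap. The difference was -0.26 ± 0.08 (SE, adjusted p = 0.0381, and 0.0129 with the block), and the call was lost in 9 of 18 alternative fits, among them fits leaving out mutant replicate 1 or 3 (0.0916 and 0.111) and sibling replicate 1, 2 or 3 (0.142, 0.0708 and 0.108). The start site of si:ch211-206k20.5 lies 338 bp away on the other strand, inside the same window, so the signal cannot be assigned to matn3b alone. Its duplicate matn3a stood at 6.39, 6.27 and 6.27 in the mutants and at 6.17, 6.11 and 6.05 in the siblings, all mutants higher. That difference, 0.20 ± 0.07, was not called (adjusted p = 0.101), and was with the block (0.021). With the replicate slope as a covariate matn3a differed by 0.32 (adjusted p = 0.109). tnr, a tenascin of the nervous system, stood at 6.42, 6.17 and 6.15 in the mutants and at 6.54, 6.49 and 6.42 in the siblings. The highest mutant replicate lay just below the lowest sibling, and the difference of -0.23 ± 0.08 passed with the block (adjusted p = 0.0124) and not without it (0.079). With the replicate slope as a covariate tnr differed by -0.02 (adjusted p = 0.945). tnc, the other tenascin, differed by -0.14 in the window used and has another, less open start site. matn1 and matn4 differed by -0.09 and 0.12, and thbs4a and thbs4b by -0.05 and 0.10.

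Neither versican, the large hyaluronan-binding proteoglycan, nor the enzymes that make hyaluronan passed. vcana and vcanb differed by -0.09 ± 0.07 and -0.11 ± 0.08 (SE), and has1, has2 and has3 by 0.01, -0.02 and 0.10. The 3 mutant replicates of vcana lay below all siblings (6.88 ± 0.07 against 6.97 ± 0.03, SD, n = 3 each; limma adjusted p = 0.498). Such a lack of overlap was seen at 14% of all tested windows.

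Of 8 matrix metalloproteinase genes, 1 fell and 7 did not pass, and all 8 differences were negative, from -0.26 to -0.05. Limma called 3.58% of all tested windows lower and 8.02% higher. Over all tested windows 54.75% were negative. The median of all windows was -0.05 at a mean log2 signal from 4 to 6 and -0.04 from 6 to 8, where these genes lie. mmp14a and mmp14b encode membrane-bound proteases that cut collagen at the cell surface and, in mammals, activate Mmp2. mmp14b (chromosome 2, 38176990 to 38180990) stood at 7.24, 7.37 and 7.19 in the mutants and at 7.54, 7.57 and 7.45 in the siblings, and no mutant library reached a sibling library. The difference was -0.26 ± 0.08 (SE, adjusted p = 0.0381, and 0.0078 with the block). This call was lost in 11 of 18 alternative fits, among them fits leaving out mutant replicate 1 or 3 (0.0729 and 0.16) and sibling replicate 1, 2 or 3 (0.128, 0.141 and 0.0557). mmp14a (chromosome 7, 23876474 to 23880474) averaged 6.88 ± 0.07 over mutant and 7.12 ± 0.10 over sibling replicates (SD, n = 3 each), again without overlap of replicates. Its difference of -0.24 ± 0.08 narrowly missed the threshold (adjusted p = 0.0542) and passed with the block (0.0103). With the replicate slope as a covariate mmp14a differed by -0.41 (adjusted p = 0.0597). The secreted gelatinases mmp2 and mmp9 differed by -0.06 and -0.09, the collagenase mmp13a by -0.11, and mmp21, mmp23bb and mmp30 by -0.05, -0.05 and -0.09.

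timp2a, one of the inhibitors of these proteases, stood at 7.79, 7.78 and 7.82 in the mutants and at 8.06, 8.01 and 7.98 in the siblings. The mutant replicates were nearly equal, and no mutant library reached a sibling library. The difference was -0.22 ± 0.07 (SE, adjusted p = 0.0614, and 0.019 with the block). timp2b and timp4a differed by -0.01 and 0.04. The 5 ADAMTS genes, which encode secreted proteases, did not pass. adamts3, whose mammalian counterpart processes procollagen, differed by 0.00 ± 0.08 (SE), and adamts5, an aggrecan- and versican-cutting protease, by 0.14 ± 0.07, with all mutant replicates above all siblings (adjusted p = 0.262). adamts9, adamts10 and adamts15a lay at -0.08, -0.09 and -0.09. The 8 lysyl oxidase genes ranged from -0.17 at loxa to 0.12 at loxl3a without a call. loxl3b varied most between replicates (8.34 ± 0.30 in mutants and 8.38 ± 0.24 in siblings, SD, n = 3 each), and the loxl2b window also holds the start site of drd7, 1545 bp away. Outside the matrix, col4a3bpa differed by 0.08 ± 0.08.

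**Figure D3:**
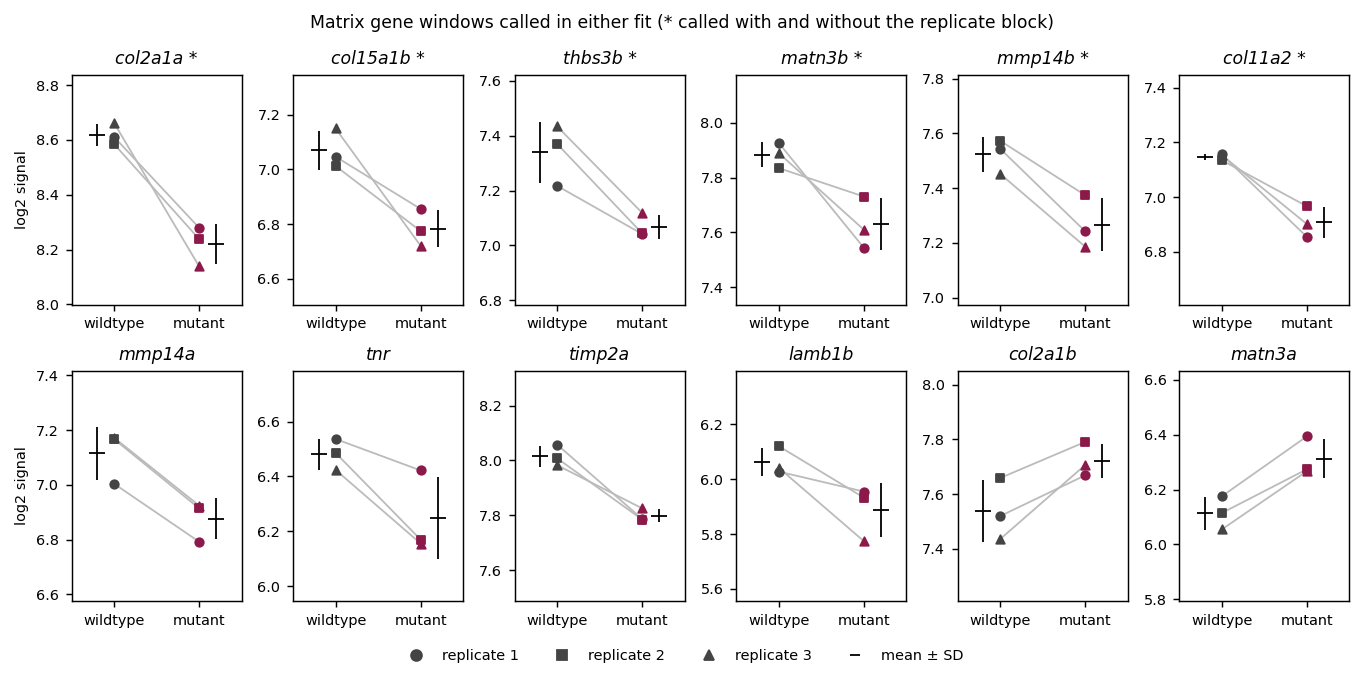
Each panel shows the log2 signal of 1 gene in the 3 wildtype and 3 mutant biological replicates, with lines joining equal replicate numbers and bars for mean ± SD, and every panel spans the same range of log2 units. The 12 genes are those called with or without the replicate block, a choice that favours groups without overlap. The groups overlap in none of the panels. Over all tested windows mutants lay lower without overlap at 14% and higher at 15.5%. Only col2a1b and matn3a are higher in mutants among these genes, by 0.18 and 0.20.

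The duplicated genome of teleosts left many matrix genes in a and b copies, and 18 such pairs are in the list. Copies often differed in openness, by more than 1 log2 unit in wildtype embryos at 7 of the 18 pairs, with a minus b at -2.64 for loxl3 and 1.08 for col2a1. Both copies differed in the negative direction at 10 pairs and the copies had opposite signs at 8. Negative differences were common in the whole list (74.4% of genes), so these counts alone say nothing on a tie between copies. The gap between col2a1a and col2a1b was 1.08 ± 0.15 in the siblings and 0.50 ± 0.10 in the mutants (SD, n = 3 each), smaller in every mutant replicate than in any sibling. At the matn3 pair, matn3b exceeded matn3a, with a minus b at -1.77 ± 0.06 in the siblings and -1.32 ± 0.16 in the mutants (SD, n = 3 each). A two-sided exact permutation test of the difference between copies gave p = 0.1 for both, which is the smallest that 3 against 3 allows, and 0.36 after adjustment over the 18 pairs, so this test cannot pass the threshold with 3 replicates in each group. The same p was reached at thbs3, thbs4 and col28a1, where the shift between copies was 0.16, -0.14 and -0.07. The mmp14 copies differed by -0.24 and -0.26, and the shift between them was 0.02 (exact permutation p = 0.9).

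**Figure D4:**
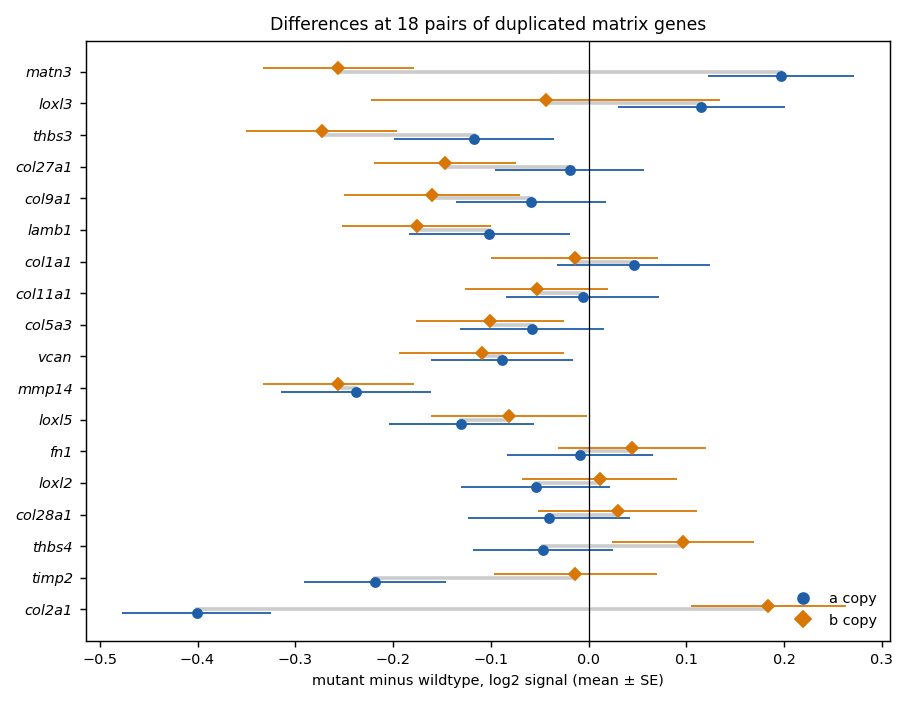
For each of 18 pairs of duplicated genes the mutant minus wildtype log2 signal of the a copy (circle) and the b copy (diamond) is drawn with its SE. The pairs are ordered by the shift between copies, and col2a1 (-0.58) and matn3 (0.45) lie at the ends.

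Other genes of the matrix were taken from 5 lists of collagen processing, receptors, basement membrane partners, elastic fibres and small proteoglycans. Of 103 tested genes in them, 2 rose, 6 fell and 95 did not pass, with 5 higher and 15 lower under the replicate block, and their median difference was -0.06. Over all tested windows 8.02% were higher and 3.58% lower, and 14% and 9.47% with the block. The largest decrease was at hapln1a, a link protein that ties versican to hyaluronan, with 8.30 ± 0.08 in siblings and 7.79 ± 0.07 in mutants (SD, n = 3 each). It differed by -0.51 ± 0.08 (SE, adjusted p = 0.00029). hapln2, another link protein, differed by -0.45 ± 0.09 (adjusted p = 0.0048). In that list of small proteoglycans and link proteins, 2 of 19 fell, 17 did not pass and the median was -0.10.

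In the other lists single genes moved. Among 19 receptors, sdc4, a syndecan that binds fibronectin, rose by 0.72 ± 0.09 (adjusted p = 3.3e-05), dag1, the dystroglycan that binds laminin, rose by 0.41 ± 0.08 (0.002), and itgb3b, an integrin beta chain, fell (-0.25 ± 0.07, 0.0369). p4ha1b, a prolyl hydroxylase subunit that stabilizes the collagen helix, was the only 1 of 30 genes of collagen folding and export to pass (-0.26 ± 0.08, adjusted p = 0.0441). grip1, which helps to place the Fraser complex at the basement membrane in mice, fell among 15 basement membrane partners (-0.29 ± 0.07, 0.0144), and emilin1a, of elastic fibres, among 20 genes of its list (-0.23 ± 0.07, 0.0386).

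**Figure D5:**
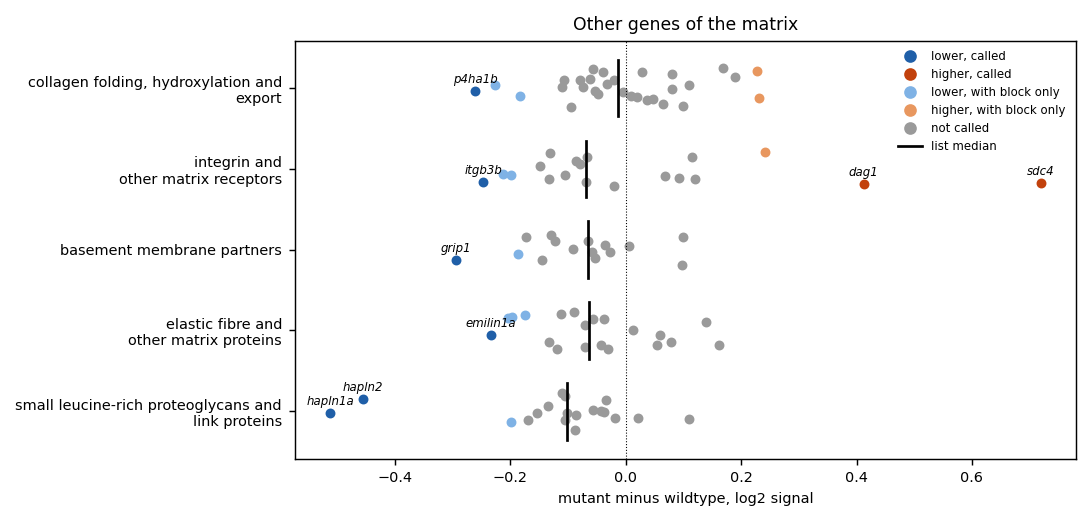
Each point is a gene of 1 of 5 further matrix lists, placed by its mutant minus wildtype log2 signal, with black bars for list medians and names for the genes called without the block. hapln1a (-0.51) and sdc4 (0.72) are the extremes, and the medians lie between -0.10 and -0.01.

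Markers of the tissues in a whole embryo were read beside these values, all of them measured above 0, with signals summed per replicate on the linear scale. Of 9 notochord markers, 2 of which are also in the matrix list, limma called none and gave 2 an unadjusted p under 0.05, 8 were negative, and 1, cav1, was lower with the block. Their median difference was -0.11. Their summed signal, given above beside col2a1a, did not overlap between the groups. Of all tested windows 54.75% were negative, 8.02% were called higher and 3.58% lower. With the block 14% were called higher and 9.47% lower. Of 10 cartilage and skeletal markers, sox9a, an activator of type II collagen genes in vertebrates, rose by 0.47 ± 0.09 (SE, adjusted p = 0.0026) and 9 did not pass, and with the block 2 were higher and 2 lower. Of these 10 markers 7 were negative, and their mean log2 level overlapped between the groups. A linear sum gives most weight to the most open windows, and sox9a, with a sibling mean of 9.62, was the most open of them. The higher cartilage sum in mutants therefore does not describe the 10 markers as a set. Of 18 markers of sclerotome, fin mesenchyme and tendon, foxc1a rose (0.31 ± 0.09) and prrx1b fell (-0.40 ± 0.08), and the sums overlapped (3035 to 3385 in mutants, 3079 to 3217 in siblings).

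Neural markers differed most between the groups, with 5 of 11 higher and 4 lower, against 8.02% and 3.58% of all tested windows. They summed to 7688 to 8305 in mutants and 5943 to 6410 in siblings. sox2, sox3, sox19a, neurog1 and ascl1b were higher, by 0.78, 0.88, 1.05, 0.37 and 0.58. elavl4, neurod1, gfap and fabp7a were lower, with differences of -0.38, -0.41, -0.39 and -0.29. The linear sum again gives most weight to the most open windows, so it does not describe the 11 markers as a set. Heart markers summed to 830 to 913 in mutants and 930 to 1035 in siblings, with 1 of 8 lower. Those of blood and vessels summed to 1372 to 1416 and 1472 to 1503, with 1 of 12 lower. As with the notochord, the sums of both sets were lower in mutants without overlap. All 8 heart markers and 11 of the 12 of blood and vessels were negative, with medians of -0.15 and -0.10. Of all tested windows 54.75% were negative, with medians of -0.05 at a mean log2 signal from 4 to 6 and -0.04 from 6 to 8. With the block 2 heart markers and 2 of blood and vessels were lower, against 9.47% of all windows. In epidermis, 1 of 11 was higher and the sums overlapped (1190 to 1399 and 1110 to 1273). In muscle, limma called none of 10, with 1 at an unadjusted p under 0.05 and 1 higher with the block, and the sums overlapped (1289 to 1630 and 1288 to 1350). The part of these tissues in the differences of matrix genes was not tested.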

How the data were processed

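The deposited table gives ATAC-seq signal per annotated start site in 12 libraries. Per the submitters' processing notes, CASAVA 1.8, FastQC 0.11.2 and HOMER 4.9 were used with the build GRCz10, while for the aligner, the read filters and any Tn5 shift the entry is: not given in the sources used here. The library columns hold log2 values normalized by the authors, with an unnamed transformation that, judged from the values, shrinks low ones, so differences and folds may understate changes. Each window further carries the authors' log2 ratio of the groups and their p-value, raw and adjusted, from an unnamed test. Repeated entries of a window were averaged (16555 entries, 15674 windows), and windows with a mean log2 value of at least 4 were tested. The column names hold 2 numbers after the group and do not say what these are. They were read as biological replicate and technical repeat, since the series text states 3 biological and 2 technical replicates. Technical repeats in this reading were averaged, and 3 replicates were compared with 3 in limma 3.58.1 under R 4.3.3 (trend and robust options, Benjamini-Hochberg over all 15431 windows). When tested on simulated data, the fit recovered most larger changes and none of the smaller ones, about the size of most differences called here. The simulation changed far fewer windows than were called here, which makes the adjusted threshold stricter. Its recovery therefore does not carry over to these data. A missed threshold still says little about such differences. The labels do not say whether biological replicates came from separate clutches, so p-values measure the spread between these samples. Replicates of equal number correlated in their deviations from the group means (r = 0.461, 0.513 and 0.534 for numbers 1, 2 and 3), which is taken as pairing, and comes from the data and the column names. Genes are named where called, as duplicates of the largest calls, or by highest and lowest signal; the remaining genes of the list are given by role. The genes, lists and tests were chosen with earlier results of these data known. Promoter and protein sequences were not used here. The accession of col28a1a is listed at a second place too. Figures were drawn with matplotlib 3.10.9.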

Additional observations from a re-analysis of the deposited data

Results flagged for a closer look

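Among the 13 genes of the list given replicate by replicate or as duplicates of called genes, 1 technical library stood apart from the other libraries of its group at 2 genes, by Dixon's criterion. In the 6 mutant libraries, the first technical repeat of replicate 1 was lowest at col11a2 (6.71, with the others from 6.894 to 6.999) and at mmp14a (6.69, with the others from 6.90 to 6.94). Chance marks about 1 in 20 groups of independent values, and 26 groups of 6 libraries were examined. Technical repeats of a replicate are not independent and both flags fall on the same library, so this rate is only approximate here. Without mutant replicate 1, the difference at col11a2 was -0.21 (limma adjusted p = 0.0791).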

How the results depend on the processing

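No difference at the 13 genes examined changed sign under the alternatives run, while the counts of calls moved. With the 12 libraries kept apart, 2969 windows were called in all and 10 of the 78 genes, 1 of them higher. With the replicate block there were 3621 windows and 12 genes, 2 higher and 10 lower. Cyclic loess normalization with that block gave 3214 windows, 13 genes, 2 higher and 11 lower, and a median of -0.0321 over the genes. Leaving out each replicate in turn gave 1056 to 2223 windows, 1 to 5 genes, 0 higher and 1 to 5 lower, and a median of -0.08 to -0.05. The 1 gene still called without wildtype replicate 3 was col2a1a. Cyclic loess alone gave 1 higher and 3 lower (median -0.0321), quantile normalization 1 and 3 (-0.0351), and equal library medians 3 genes, all 3 lower (-0.0352). These 3 fits keep all libraries, and each lost the calls at col11a2 and mmp14b. The call at thbs3b was lost under cyclic loess and quantile normalization, and that at matn3b under equal library medians (limma adjusted p = 0.0638). Equal library medians moved the median of all windows by the same amount. The replicate slope as a covariate left 442 windows and 0 genes, 0 lower, with 11 at an unadjusted p under 0.05. That slope was higher in every mutant replicate than in any sibling, so the fit cannot fully separate it from genotype. The first technical repeat alone moved the median to -0.10, and the second to -0.0375 with 758 windows and 1 gene, which was lower. The cause of these changes was not tested. Fits that leave out a replicate or repeat also rest on fewer libraries. Depth is unknown, so its limit on weak windows cannot be stated.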
